A study of Canis lupus familiaris with 8 samples.

Results

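Transcripts of the nuclear lamina and of the LINC complex, the protein bridge between the nucleus and the cytoskeleton, were followed in a dog kidney epithelial monolayer after static stretch. The set held 10 genes, picked by symbol from a table of 37952 genes, with no threshold on measured values but with earlier results of these data known: the lamin genes LMNA, LMNB1 and LMNB2, the inner nuclear membrane genes EMD and LBR, the SUN genes SUN1 and SUN2, and the nesprin genes SYNE1, SYNE2 and SYNE3. All 10 were in the table and passed the filter on low counts, as did 14571 genes in all. RNA came from MDCK GII cells, an epithelial line derived from the kidney of a dog, plated on collagen-coated silicone membranes and grown overnight. The stretch group had 4 wells held at an equal in-plane strain of 18% in all directions for 2 hours, and the control group had 4 wells of the same line without strain. The labels call the wells technical quadruplicates of a single line, so every p-value below measures the spread between wells only.

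The lamina is a mesh of intermediate filament proteins under the inner nuclear membrane. A-type lamins, lamin A and lamin C, are both made from LMNA by alternative splicing, and the B-type lamins come from LMNB1 and LMNB2. Emerin (EMD) and the lamin B receptor (LBR) are membrane proteins that tie the lamina and chromatin to the inner membrane. In the LINC complex, SUN proteins of the inner membrane bind the tails of nesprins, which span the outer membrane and reach actin, microtubule motors or, through plectin, intermediate filaments. A pull on the cytoskeleton can reach the nucleus along this chain, and the level of A-type lamin is known to relate to nuclear stiffness.

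Library totals ranged from 27047358 to 32478887 counts per well, and the 10 genes together took 0.191% to 0.211% of them. The labelled cell type was checked with 10 kidney epithelium markers, whose summed level was 6252 to 6435 CPM (counts rescaled so that all libraries have equal totals) under stretch and 5946 to 6680 without. CDH1, EPCAM, KRT8, KRT18 and KRT19 had means from 528 CPM (EPCAM) to 2458 CPM (KRT8), and CDH16, a kidney cadherin, had the lowest mean of the 10 at 1.46 CPM. Summed levels in any well were at most 4.22 CPM for 7 fibroblast markers, 2.37 CPM for 5 endothelium markers and 6.10 CPM for 5 leukocyte markers. COL1A2, COL3A1, DCN, LUM, PTPRC, CD3E and ITGAM had 0 counts in every well.

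At rest the 10 transcripts spanned more than 3 orders of magnitude. To compare genes, CPM normalised with TMM factors (a scaling that sets libraries to a common composition) were divided by the exon length in kilobases. On this scale LMNA was the highest, at 237 ± 27.3 CPM per kilobase (mean ± SD, n = 4 control wells), above 97.5% of the tested genes. LMNB1 came next at 153 ± 5.71, above 96.1% of them. LBR (60.0 ± 2.06), EMD (54.5 ± 5.76) and SUN2 (47.5 ± 3.50 CPM per kilobase) followed, and the ranges of control wells overlapped between LBR and EMD and between EMD and SUN2. SUN1 stood at 26.2 ± 0.525, then SYNE2 at 12.5 ± 1.32 and LMNB2 at 10.7 ± 2.17 CPM per kilobase, and the last 2 overlapped. SYNE1 at 1.07 ± 0.188 and SYNE3 at 0.192 ± 0.0553 CPM per kilobase were the lowest, with no overlap between their control wells. The remaining neighbours in this order also did not overlap, and the order was the same with other scalings and without any one control well.

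**Figure D1:**
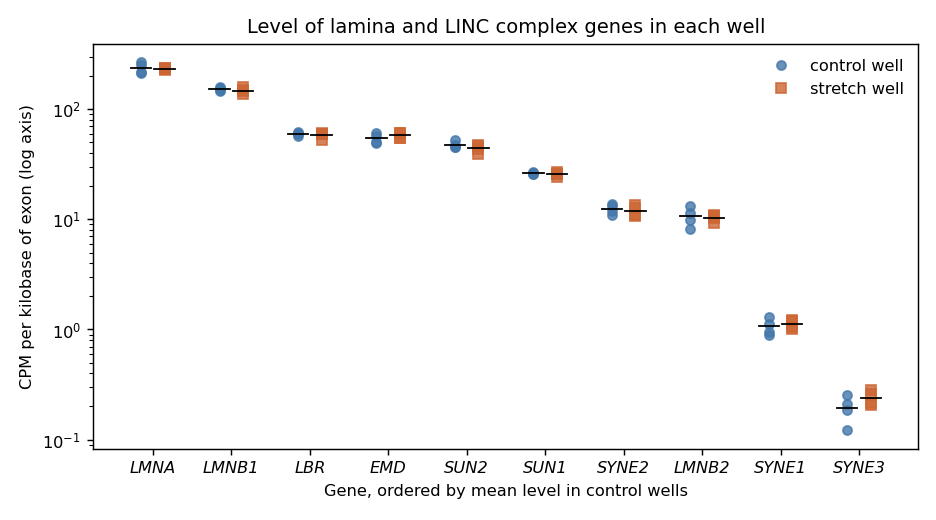
Level of each gene in CPM per kilobase of exon (log axis) in 4 control wells (circles) and 4 stretch wells (squares), with group means as bars. LMNA and LMNB1 lie at the top, SYNE1 and SYNE3 at the bottom, and the symbols of the groups overlap for every gene.

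These levels rest on the gene models of the deposited table. LMNA spans positions 41687512 to 41704901 of chromosome 7 on the minus strand, with 2670 exon bases and a single RefSeq transcript, so the count does not separate lamin A from lamin C. SYNE1 spans 449233 bases of chromosome 1 (42790456 to 43239688, minus strand), and its 28243 exon bases are the union of 19 RefSeq transcripts. For SYNE2 (chromosome 8, 38650638 to 38919080, plus strand) 21869 exon bases cover 5 transcripts. A level divided by such a union is too low where short isoforms prevail, which gene counts do not show. SUN1, SUN2 and SYNE2 share exonic positions with genes on the opposite strand (1, 2 and 1 genes). The libraries were strand-specific, but the strand setting of the counting was not given in the sources used here, so these 3 values are uncertain. LMNB1 overlaps 1 opposite-strand gene with no shared exonic position, and the other 6 members overlap none. EMD, the smallest gene, has 1296 exon bases on chromosome X (123237823 to 123240104, minus strand).

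LMNA stood at 577, 565, 712 and 677 CPM in control replicates 1 to 4. In stretch replicates 1 to 4 it stood at 619, 627, 610 and 628 CPM. The stretch wells lay close together and inside the range of the control wells, where replicates 1 and 2 were low and 3 and 4 high. The coefficient of variation of LMNA was 11.5% among control wells and 1.36% among stretch wells, against a counting error of 0.726% and 0.740%. A difference in spread between the groups was not tested. The group means were 633 ± 72.8 and 621 ± 8.43 CPM (n = 4 each), a fold of 0.981 with a 95% interval of 0.886 to 1.09 (edgeR, adjusted p = 0.999).

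LMNB1, the main B-type lamin gene here (chromosome 11, 15895575 to 15951943), had 418, 386, 392 and 410 CPM in control replicates 1 to 4. Its stretch wells had 419, 383, 359 and 393 CPM, a range that takes in every control well. The fold was 0.967, with a 95% interval of 0.897 to 1.04 (edgeR, adjusted p = 0.999). LMNB2 (chromosome 20, 57116796 to 57134399) was measured at 19.8, 23.9, 32.1 and 27.5 CPM in control replicates 1 to 4 and at 22.3, 26.2, 24.7 and 26.1 CPM in stretch replicates 1 to 4. As for LMNA, the control wells were the more scattered, at 20.3% against 7.35% in stretch wells. For LMNB1 the stretch wells were, at 6.37% against 3.74% in control wells, and so they were for SUN1, SUN2, SYNE2 and LBR. For LMNB2 the groups overlapped. The LMNB2 fold of 0.961 had an interval of 0.794 to 1.16 (edgeR, adjusted p = 0.999).

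The makeup of the lamin transcripts was described by the share of each gene in their summed CPM per kilobase. The LMNA share was 59.0 ± 2.63% without strain and 59.5 ± 1.25% with it (n = 4 each). LMNB1 held 38.3 ± 2.98% and 37.8 ± 1.44%, and LMNB2 held 2.66 ± 0.395% and 2.63 ± 0.220%. The ratio of A-type to B-type transcripts was 1.29, 1.35, 1.64 and 1.51 in control replicates 1 to 4. In stretch replicates 1 to 4 it was 1.37, 1.50, 1.56 and 1.47, all inside the control range. The mean log2 difference, stretch minus control, was 0.030, against an SD of 0.157 among control wells. Replicates 1 and 2 alone gave 0.120, replicates 3 and 4 alone gave -0.061, and the sign turned without control replicate 1 (-0.024) or control replicate 2 (-0.0025).

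EMD, which encodes emerin, had 65.4, 63.6, 79.6 and 73.7 CPM in control replicates 1 to 4. Stretch replicates 1 to 4 had 70.8, 71.6, 79.0 and 79.5 CPM. Replicates 1 and 2 were below 3 and 4 in both groups, and the groups overlapped. The fold of 1.07 had a 95% interval of 0.952 to 1.19 (edgeR, adjusted p = 0.999), and 3 of 4 same-numbered pairs were higher after stretch. LBR, whose product also has sterol reductase activity (chromosome 7, 39239492 to 39260863), had 254, 250, 237 and 256 CPM in control wells. It had 246, 247, 218 and 253 CPM in stretch replicates 1 to 4. All 4 pairs of LBR were lower, by 0.016 to 0.12 on the log2 scale, and the fold of 0.966 had an interval of 0.894 to 1.04 (edgeR, adjusted p = 0.999).

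Both SUN genes were well counted, with at least 3278 counts in each well for SUN1 and 4505 for SUN2. SUN1 (chromosome 6, 16144345 to 16195693) had 129, 134, 129 and 133 CPM in control replicates 1 to 4 and 130, 121, 134 and 130 CPM in stretch replicates 1 to 4. Its control wells spread by 2.00%, close to the counting error of 1.59%, and its fold was 0.980 (95% interval 0.914 to 1.05; edgeR, adjusted p = 0.999). SUN2 (chromosome 10, 27055803 to 27075497) stood at 178, 186, 178 and 208 CPM in control wells. In stretch replicates 1 to 4 SUN2 stood at 173, 182, 154 and 187 CPM. Every pair of SUN2 was lower after stretch, by 0.028 to 0.21 on the log2 scale, while the groups overlapped. Its fold was 0.930, with an interval of 0.841 to 1.03 without the replicate block and 0.875 to 0.986 with it (edgeR, adjusted p = 0.999 and 0.401). Of the summed SUN level, SUN1 made up 35.6 ± 1.38% without strain and 36.9 ± 2.75% with it (n = 4 each).

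SYNE2, the gene of nesprin-2, carried most of the summed level per kilobase of SYNE1, SYNE2 and SYNE3, 90.8 ± 1.33% without strain and 89.8 ± 1.27% with it (n = 4 each). When SYNE4, a nesprin gene outside the set, was added to the sum, the SYNE2 share was 80.1 ± 1.51% and 78.1 ± 1.30%. SYNE2 control replicates 1 to 4 had 261, 290, 238 and 302 CPM and stretch replicates 1 to 4 had 237, 242, 277 and 296 CPM. The groups overlapped almost fully, and the fold was 0.964 (95% interval 0.842 to 1.10; edgeR, adjusted p = 0.999). SYNE1, the gene of nesprin-1, had 31.6, 37.0, 25.1 and 27.0 CPM in control wells and 34.1, 29.7, 33.5 and 28.5 CPM in stretch wells, each in the order of replicates 1 to 4. Its stretch wells all lay within the control range, with a fold of 1.04 (interval 0.878 to 1.24; edgeR, adjusted p = 0.999).

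SYNE3 encodes nesprin-3, the nesprin that binds plectin, and lies on chromosome 8 (64587336 to 64694182, minus strand). It was close to the limit of what this depth can resolve, with 29, 27, 15 and 25 raw counts in control replicates 1 to 4 and 25, 32, 26 and 35 in stretch replicates 1 to 4. The mean level was 0.806 ± 0.232 CPM in control and 1.01 ± 0.155 CPM in stretch wells (n = 4 each). The fold of 1.25 had an interval of 0.826 to 1.89 (edgeR, adjusted p = 0.999), so these wells do not exclude a change of this gene inside these bounds. For SYNE3 the spread among wells, 28.8% and 15.4%, was near the counting error of 20.4% and 18.4%. For LMNA in control wells it was 15.9 times the counting error.

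No gene of the lamina or the LINC complex passed an adjusted p of 0.05 after 2 hours of strain. Without the replicate block 0 of the 10 passed in edgeR's quasi-likelihood test, where 0 of 14571 genes (0%) passed in all. At an unadjusted p under 0.05 there were 0 of the 10, against 579 genes or 3.97% of all tested. Blocking on the replicate number gave 102 genes (0.700%) past the threshold, and again 0 of the 10. SUN2 alone had an unadjusted p under 0.05 with the block (edgeR, adjusted p = 0.401), against 8.89% of all tested genes. In no member did the stretch wells lie all below or all above the control wells, while 1.24% of the tested genes lay all below and 1.30% all above. The median log2 change was -0.038 over the 10 and -0.0032 over all tested genes, and the median size of a change was 0.055 and 0.059. DESeq2 and limma-voom, without and with the block, also called 0 of the 10. In lysates of whole wells, fewer cells expressing a gene and less RNA per cell cannot be told apart.

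The intervals bound how large a change these wells allow. For the 9 members other than SYNE3, the lower ends of the 95% intervals of the fold ran from 0.794 to 0.952 and the upper ends from 1.03 to 1.24 without the block. With the block they ran from 0.857 to 0.997 and from 0.986 to 1.23. The interval held 1 in all 10 genes without the block and in 9 with it, SUN2 being the exception. These intervals are for single genes and are not adjusted for their number.

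**Figure D2:**
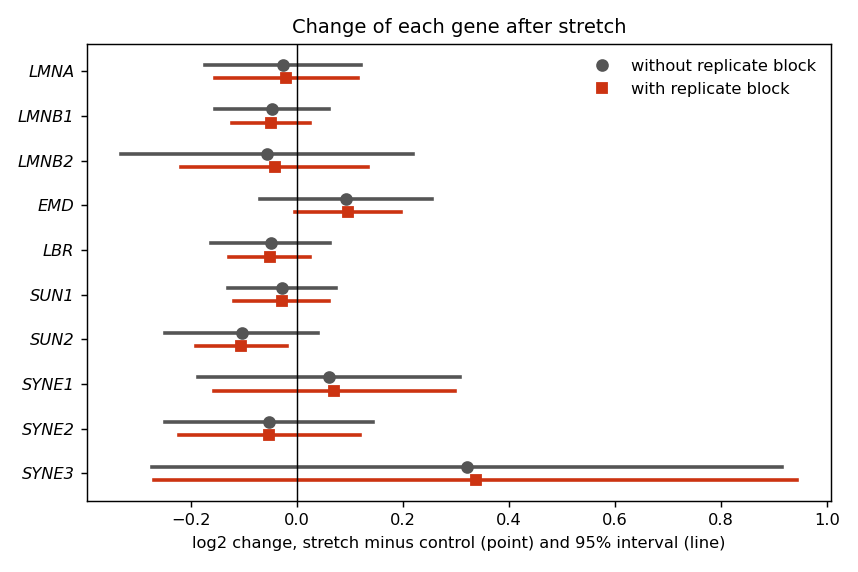
Log2 change of each gene, stretch minus control (points), with its 95% interval (lines), from edgeR without the replicate block (circles) and with it (squares). Every interval crosses 0 except that of SUN2 with the block, and SYNE3, with the fewest counts, has the widest.

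Same-numbered wells moved in different directions for several members. In LMNA the stretch well was higher in replicates 1 and 2, by 0.10 and 0.15 on the log2 scale, and changed by -0.22 and -0.11 in replicates 3 and 4. Within replicates 1 and 2 alone the log2 change of LMNA was 0.125 ± 0.0485 (SE; edgeR, adjusted p = 0.511). Within replicates 3 and 4 alone it was -0.161 ± 0.0632 (edgeR, adjusted p = 0.53). LMNB2 had 0.148 in the first of these sets and -0.224 in the other, and SYNE1, in the opposite order, -0.105 and 0.255. SYNE2 had -0.203 within replicates 1 and 2 (edgeR, adjusted p = 0.189) and 0.0905 within replicates 3 and 4. None of these passed over all genes, and the difference between the sets was not tested. The labels do not say what a replicate number stands for, and the division into these sets comes from earlier results of the same data.

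Some members were separated along the same division, EMD in both groups and the others in at most 1. With only 2 wells on each side a separation arises easily by chance. Its share over all genes was not counted, so the values below are a description only. Control replicates 1 and 2 lay below 3 and 4 for LMNA (571 against 694 CPM, as means), LMNB2 (21.8 against 29.8) and EMD (64.5 against 76.7). They lay above 3 and 4 for SYNE1 (34.3 against 26.1) and SYNE3 (0.969 against 0.643). For the other 5 members the control wells overlapped across the division. Stretch replicates 1 and 2 lay below 3 and 4 for EMD (71.2 against 79.3 CPM), SUN1 (125 against 132) and SYNE2 (239 against 286). The stretch wells of the remaining 7 members overlapped, among them LMNA at 623 and 619 CPM and LMNB2 at 24.3 and 25.4. PLEC, which encodes the linker plectin, was another gene with scattered control wells, at 104 ± 27.5 CPM per kilobase against 106 ± 11.9 in stretch wells (n = 4 each).

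**Figure D3:**
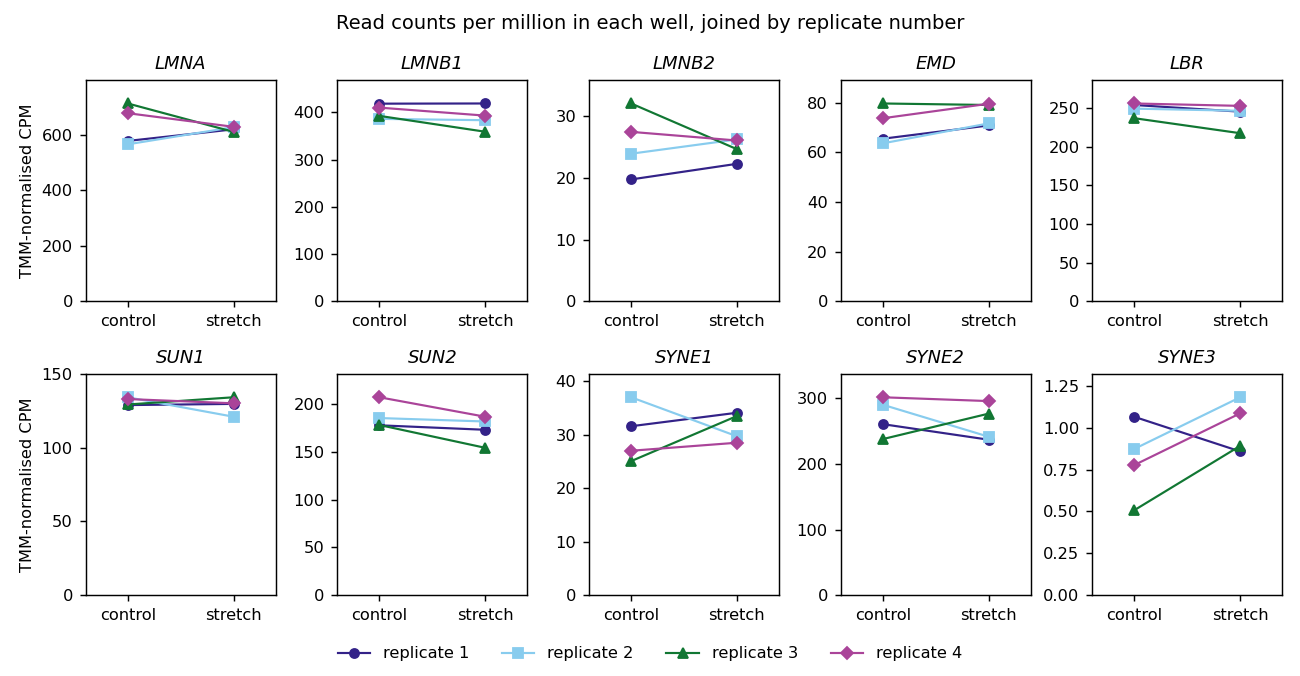
TMM-normalised CPM of each gene in every well, from 0, with lines joining the control and stretch wells of the same replicate number. For LMNA and LMNB2 the lines converge from scattered control wells to close stretch wells, LBR and SUN2 are lower in all 4 pairs, and the groups overlap in every panel.

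Other genes of the nuclear envelope were read from fixed lists. Among 17 tested partners of the lamina at the inner membrane, 0 passed in either fit, and the median log2 change was -0.016. TMPO, whose LAP2 proteins bind lamins and chromatin, had the smallest p. It went from 202 to 181 CPM as group means, a log2 change of -0.16 with every pair lower (edgeR, adjusted p = 0.999 without the block and 0.098 with it), and it shares exonic positions with a tRNA gene on the same strand. For CBX3, a heterochromatin protein 1 gene, the log2 change came to -0.083 (adjusted p = 0.569 by edgeR with the block). BANF1, the gene of a small protein that bridges chromatin and the membrane, was the most abundant member after CBX3 per kilobase, at 153 ± 8.06 CPM per kilobase in control and 154 ± 8.99 in stretch wells (n = 4 each).

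All 6 enzymes and partners of lamin processing were tested and 0 passed in either fit, with a median log2 change of -0.068. Prelamin A and the B-type lamins are farnesylated, trimmed and methylated at their tails before they are mature. FNTA, a subunit of the farnesyltransferase, was the highest of the list at 62.2 ± 2.62 CPM per kilobase in control wells (n = 4). ZMPSTE24, the protease that cleaves prelamin A, had 30.2 ± 2.75 in control and 29.7 ± 3.13 CPM per kilobase in stretch wells (n = 4 each). ICMT, the methyltransferase, had a log2 change of 0.098 and was higher in 4 of 4 pairs (edgeR with the block, adjusted p = 0.419). As an opposite-strand gene covers some of its exonic positions, this value is uncertain. NARF, which binds prelamin A, had -0.10 and was lower in 4 of 4 pairs (edgeR with the block, adjusted p = 0.663).

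Of 15 further LINC genes and cytoskeletal partners, 12 were tested and 0 passed in either fit, with a median log2 change of 0.0096. SUN3, SUN5 and IRAG2 were not tested. SUN5 had 0 counts in all 8 wells, which allows at most 0.0126 CPM over the wells together (3 counts of 237558216, counting error only), and SUN3 and IRAG2 had 2 and 1 counts in total. SYNE4, the gene of nesprin-4, an epithelial nesprin that binds kinesin-1, stood at 1.83 ± 0.0976 CPM per kilobase in control wells, above SYNE1 and SYNE3 on that scale. Its level in stretch wells was 2.00 ± 0.157 CPM per kilobase (n = 4 each). KASH5, known for its role in meiosis, was counted at 80 to 129 reads per well. DYNC1H1, the dynein heavy chain, and SPAG4, a SUN family gene with 32 to 55 counts per well, had log2 changes of -0.070 and 0.36 (edgeR with the block, adjusted p = 0.586 and 0.727).

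Nuclear pore genes were described beside them, since the pores sit in the same envelope and touch the lamina. All 29 listed genes in the table were tested and 0 passed in either fit. Their log2 changes ran from -0.12 to 0.057 with a median of -0.039, and 27 of the 29 were below 0, against 7553 of the 14571 genes tested. RANBP2, a pore filament protein, had -0.12 with 4 of 4 pairs lower, and NUP85 had -0.087 (edgeR with the block, adjusted p = 0.24 and 0.6).

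Genes of the G2/M phases of the cell cycle, when cells prepare for and enter mitosis, were read in the same wells. This list, like the others, was drawn up with earlier results known, a lower level of G2/M genes among them, so its direction is not independent evidence. Of 27 tested, all had log2 changes below 0, against 7553 of the 14571 genes tested. With the block 3 passed, all lower, against 0.700% of all tested genes, and without it 0 passed, against 0%. The 3 were WEE1, a kinase that holds back mitotic entry, TTK, a kinase of the spindle checkpoint, and CENPF, a kinetochore protein. Their log2 changes without the block were -0.31, -0.29 and -0.34 (edgeR, adjusted p = 0.114, 0.999 and 0.938 without the block and 0.00246, 0.0248 and 0.0337 with it). The median over the 27 was -0.19, and 5 of them had every stretch well below every control well, against 1.24% of all tested genes. Summed over the list, control wells held 5069 to 5406 CPM and stretch wells 4017 to 5034 CPM, with the lowest sum in stretch replicate 3. LMNB1, LBR and SUN2 were also lowest in stretch replicate 3, at 359, 218 and 154 CPM. Without that well their log2 changes were -0.011, -0.0032 and -0.050, and the median of the G2/M list was -0.12. Whether cell-cycle stage had a part in the values of these 3 genes was not tested. Of 22 S-phase genes, 0 passed in either fit. Their median log2 change was -0.067, and CDC45 and MCM2, both of the replicative helicase, had 0.17 and -0.13 (edgeR with the block, adjusted p = 0.249 and 0.265).

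**Figure D4:**
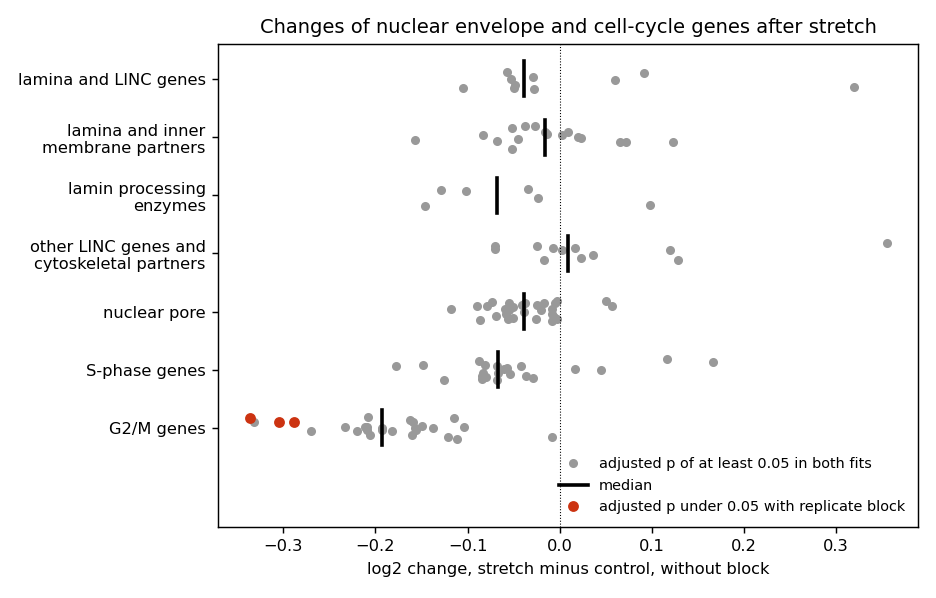
Log2 change without the block, stretch minus control, for each tested gene of 7 lists (points), with the list median (bar). The lamina and LINC genes lie around their median of -0.038, while the G2/M genes lie below 0 and hold the 3 genes that passed with the block.

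SUN2 had the smallest p of the 10 with the block, and the genes whose levels followed it most closely were sought among 9904 genes with a mean of at least 10 CPM. Likeness was the root mean square difference of log2 CPM over the 8 wells, each gene centred on its own mean. HMG20B, RANGAP1 and HMGB3 were nearest, at 0.042, 0.043 and 0.045, against a spread of 0.11 for SUN2 itself. The stretch wells entered this choice, so the likeness is a description only.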

How the data were processed

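Strand-specific polyA libraries of 8 wells were sequenced. The authors deposited raw exon counts per gene as a single table of 37952 genes with 8 sample columns and 0 columns of other samples. Per the submitters' processing notes, FastQC 0.11.8, Trim Galore 0.6.5, STAR 2.7.3a, Subread and featureCounts were used, and settings, build and strand mode are not given in the sources used here. Gene positions and exon lengths are those of the deposited table, and chromosome numbers come from RefSeq (UU_Cfam_GSD_1.0), where 37291 symbols matched and 37291 of these had identical starts and ends.

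Counts of all genes were fitted in R 4.3.3 with edgeR 4.0.16 (TMM factors, filterByExpr with a minimum count of 10 and a minimum total of 15, robust glmQLFit, glmQLFTest), stretch against control over 8 wells. Two-sided p-values were adjusted by the Benjamini-Hochberg method over 14571 genes at 0.05. Intervals came from the log2 change and its standard error (the change divided by the root of the F statistic). Log2 values per well used a prior count of 2. The procedure was tested on simulated data. Wells of a group differed beyond sampling noise (chi-square per degree of freedom 5.56 to 26.8), so all were kept.

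Both groups carry replicate numbers 1 to 4 in their titles. Same-numbered wells deviated together from their group means, with correlations over genes of 0.108 to 0.328. Wells of different numbers were not compared in this way. These values therefore cannot tell pairing by number from the division of wells described above. The fit with the replicate block is printed as an alternative, for the calls and for some genes. Its numbers come from the titles, but the labels do not say that same-numbered wells belong together. The reason for the block comes from the data.

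The 10 members and the lists (156 entries, 154 in the table, 138 tested) were chosen with earlier results of these data known. The text names all members. From each other list except the cell type markers, it names genes past the threshold in either fit, or else the 2 with the smallest p with the block. Markers are named by their level or their lack of counts. Levels of further list genes (BANF1, FNTA, ZMPSTE24, SYNE4, KASH5, PLEC and those with almost no counts) were added after their values were seen. Alternatives were DESeq2 1.42.0, limma-voom (limma 3.58.1), other scalings, count filters, blocks and omitted wells. Figures used matplotlib 3.10.9.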

Additional observations from a re-analysis of the deposited data

How the results depend on the processing

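In all 26 fits, the 25 alternatives included, 0 of the 10 members passed. The lowest adjusted p of a member was 0.0781, for SYNE2 with the replicate block and without both wells of replicate 3. LMNB1, SUN2, SYNE3, EMD and LBR kept their direction in all 25 alternatives, but not their size. The log2 change ran from -0.0884 to -0.00413 for LMNB1, -0.171 to -0.0339 for SUN2 and 0.0738 to 0.619 for SYNE3. For EMD it ran from 0.0484 to 0.155 and for LBR from -0.0728 to -0.0032. The other 5 members turned in some, and the cause was not tested. Within replicates 1 and 2, the log2 change was 0.125 for LMNA, 0.148 for LMNB2 and -0.105 for SYNE1. Within replicates 3 and 4, it was 0.0166 for SUN1 and 0.0905 for SYNE2. Leaving out single wells gave -0.0748 to 0.0344 for LMNA, -0.162 to 0.0638 for LMNB2, -0.0477 to 0.00272 for SUN1, -0.0182 to 0.177 for SYNE1 and -0.112 to 0.000623 for SYNE2. With the replicate block, leaving out both wells of a number turned LMNA (0.0461 without replicate 3, 0.00935 without replicate 4), LMNB2 and SYNE1 (0.0715 and -0.0445 without replicate 3), and SUN1 and SYNE2 (0.0135 and 0.0208 without replicate 2).

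Genes called in all numbered 0 in the fit of the report, 40 with DESeq2, 11 without a count filter, 102 with the replicate block, 58 with a block of 2 levels, 145 with DESeq2 and the replicate block, 122 with limma-voom and the replicate block, 51 within replicates 1 and 2, and 25 within replicates 3 and 4. G2/M genes called numbered 1, 1, 3, 2, 8 and 5 in the first 6 of these alternatives, 2 within replicates 1 and 2, and 0 within replicates 3 and 4. Leaving out 1 well at a time gave 0 to 12 genes, the most without control replicate 3. With the replicate block and without replicates 1, 2, 3 and 4 of both groups, the counts were 43, 67, 186 and 74 genes, of which 1, 1, 5 and 5 were G2/M genes. The 25 alternatives moved the median of all genes by at most 0.00607 on the log2 scale. All 60 alternative values of the level in control wells stayed within 1 SD. Those without 1 control well could not do otherwise, as leaving out 1 of 4 wells cannot move their mean that far. The ratio of A-type to B-type lamin levels differed by 0.030 (log2). Its values in 12 alternatives, those by well added after seeing the data, lay within 1 SD of the control wells from this. For those without 1 control well this too could not fail. In 20 groups of 4 wells examined, 0 wells stood apart by Dixon's ratio, where about 1 would by chance.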
